A study of Mus musculus with 46 samples.

Results

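Liver tumours in which a Myc transgene had been switched off for 16 h (Myc-off tumours) were set against control liver, a comparison of what differed from normal tissue after the oncogene was lost. Samples were chosen by their titles and genotype labels, which gave 19 of the 46 libraries of the series: 8 Myc-off tumours and 11 control livers. Myc-off tumours came from FVB mice with the genotype tet-Myc/LAPtTA and were taken after 16 h of food containing doxycycline. Control livers came from FVB mice and are labelled control liver only, with no genotype, food or age. Tumours lettered A to C share an ID number, and each ID was taken as 1 animal, which is an assumption; the replicates are therefore 3 Myc-off IDs and 11 control IDs of 31 IDs in all. The 16 Myc tumours of 7 IDs, which carry the same transgene left on, served as a second comparison for the Myc-off tumours. The 11 MycVD tumours of 10 IDs, of genotype tet-MycVD/LAPtTA with the transgene on, entered the same fit. Their values are given for a few genes. Where 3 values are given for Myc-off tumours, they belong to ID150584 (3 tumours), ID151964 (2 tumours) and ID153344 (3 tumours), in that order.

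Myc is a transcription factor that binds DNA together with Max at E-box sequences and raises the transcription of genes for ribosome production, nucleotide synthesis and cell division. In the tet-Myc/LAPtTA model the LAP promoter drives the tetracycline transactivator in hepatocytes, so that the transgene is on from before birth and doxycycline turns it off. Tumours that depend on the transgene stop growing when it is lost, and their cells have been described to take on features of hepatocytes and bile duct cells. The switch-off acts directly only on cells that express the transactivator, which is not driven in endothelium, stroma and blood cells of the tumour. Indirect effects on those cells were not tested.

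Ribosomal RNA had been removed from total RNA before sequencing, and the deposited values are exonic reads per kb and per M reads (eRPKM). Depth recovered from the values was 3.25 to 10.4 M reads per Myc-off library (median 7.14) and 5.63 to 8.95 M reads per control library (median 7.32). The values show a ceiling of reads per kb. Eef1a1, an elongation factor gene of high level, reached 1384 to 1655 reads per kb in Myc-off libraries and 1364 to 1591 in control libraries, although its eRPKM ran from 159 to 426 and from 171 to 260. Differences of genes near this ceiling, such as Alb, are compressed. Xist was over 10 eRPKM in 2 of 3 Myc-off IDs and in 5 of 11 control IDs, so both sexes are present on both sides. Over the genes tested, the median SD on the log2 scale was 0.248 among tumours of the same Myc-off ID, 0.213 among the Myc-off ID values and 0.243 among control IDs. The Myc-off IDs are numbered above all other IDs and doxycycline is stated for these animals alone, so neither date, batch nor drug can be told apart from loss of the transgene. Within ID150584, tumours B and C were the deepest and the shallowest Myc-off libraries, and control ID125322 had the lowest Gapdh level of the control libraries, 14.96 eRPKM; without these 3 libraries 8821 genes were called, against 8423 with them.

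Of 14548 genes tested with limma, 8423 (57.9%) differed between Myc-off tumours and control liver at an adjusted p under 0.05. Higher in Myc-off tumours were 5279 genes (36.3%), of which 2325 (16.0% of the genes tested) by at least 2-fold. Lower were 3144 genes (21.6%), of which 1132 (7.78%) by at least 2-fold. Against Myc tumours, 22.2% of the genes tested were higher in Myc-off tumours and 28.3% lower. These shares are the background against which the counts in each gene list are read. The median log2 fold change of all genes was 0.15, and it moved to -0.02 under median-ratio scaling and to -0.01 under quantile normalisation. The share of higher genes among the calls was 62.7% as deposited, 48.0% under median-ratio scaling and 49.3% under quantile normalisation, so the excess of rises is absent under these 2 scalings. It was 65.1% with the start position correction and 63.0% with depth as a term, and voom on the recovered reads gave 5810 higher and 3262 lower genes. Fold changes are differences of log2(eRPKM + 0.5), with SE, and understate the change of low genes.

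Hepatocyte transcripts remained abundant. Alb, the gene of serum albumin, was at 161, 194 and 198 eRPKM in Myc-off tumours, against 85.3 to 273 (median 243) in control liver, a log2 fold change of -0.12 ± 0.25, which missed the threshold (limma adjusted p = 0.7). The lowest control value lies below all Myc-off IDs and the control median above them. The transthyretin gene Ttr at -0.19, the apolipoprotein genes Apoa1 at -0.12 and Apoa2 at -0.19, and Hnf4a, which encodes a master regulator of hepatocyte genes, at -0.09 did not pass either. Of the other markers looked at, Cps1 at -0.39 and Trf at 0.05 did not pass. The antitrypsin gene Serpina1a fell by 0.48 ± 0.12, with a limma adjusted p of 7.9e-04. Alb averaged 1371 reads per kb over the Myc-off and control libraries, near the ceiling, which compresses differences. Apoa1, at 198 to 218 eRPKM over the Myc-off IDs, and Apoa2, at 185 to 200, were at levels like that of Alb. Small differences of such genes therefore do not show equal levels.

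The table's Myc gene was at 4.68, 8.78 and 4.01 eRPKM in Myc-off tumours, against 1.46 to 18.2 (median 5.56) in control liver, a difference of 0.16 ± 0.46 (limma adjusted p = 0.78). In Myc tumours it was at 6.27 to 10.8 (median 7.06). All 3 Myc-off values lie inside the control range, and the values do not check the labels, because no label names the species of the transgene and its transcript may not have been counted as Myc. Max, the obligate partner of Myc, was at 25.1, 25.6 and 26.1 eRPKM in Myc-off tumours and 14.2 to 28.1 (median 17.1) in control liver, and rose by 0.49 ± 0.12 (adjusted p = 0.0013), while it was -0.72 ± 0.13 relative to Myc tumours (adjusted p = 3.7e-05). Of the 14 genes of the Myc and Max network, 5 rose (35.7%, against 36.3% of all genes) and 5 fell (35.7%, against 21.6%) against control liver. The rises were led by Mxd3 at 1.86 ± 0.21 and Mxd1 at 1.42 ± 0.28, which encode Max-binding repressors. The falls were led by the paralogs Mycl at -2.40 ± 0.32 and Mycn at -1.37 ± 0.22, and by the glucose sensor gene Mlxipl at -0.75 ± 0.12.

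A pair of classical Myc targets stood close to control liver. Odc1, the gene of the first enzyme of polyamine synthesis, was at 51, 53.9 and 62.4 eRPKM in Myc-off tumours, against 49.8 to 70.6 (median 59.5) in control liver and 88.1 to 106 (median 89.6) in Myc tumours. Its difference was -0.08 ± 0.10 from control liver (limma adjusted p = 0.48) and -0.77 ± 0.10 from Myc tumours (adjusted p = 1.8e-07). Under median-ratio scaling Odc1 was called lower than in control liver (-0.26, adjusted p = 0.034). The nucleolin gene Ncl was at 46.8, 31.7 and 33.9 eRPKM in Myc-off tumours, against 27.8 to 35.3 (median 32.1) in control liver and 77.3 to 86.1 (median 81.8) in Myc tumours. It was 0.22 ± 0.09 from control liver (adjusted p = 0.025) and -1.14 ± 0.09 from Myc tumours (adjusted p = 9.8e-12). Of the 3 IDs, only ID150584 exceeded the control range for Ncl, and the call against control liver was lost without that ID (0.05, adjusted p = 0.61) and under median-ratio scaling (0.04, adjusted p = 0.73).

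Ribosome biogenesis genes, which encode the nucleolar factors that make and assemble ribosomal subunits, were near the control level as a group. Of 52 such genes tested, 15 rose (28.8%, against 36.3% of all genes) and 6 fell (11.5%, against 21.6%), with a median log2 fold change of 0.06, below the 0.15 of all genes. Against Myc tumours all 52 fell, at a median log2 fold change of -1.47, where 28.3% of all genes fell and the median of all genes was -0.01. Their summed level was 1009.5, 1138 and 1143 eRPKM over the Myc-off IDs, 830.1 to 1175 over control IDs and 2564 to 3123 over Myc tumour IDs. The largest rises were Polr1a, the largest subunit of RNA polymerase I, at 1.01 ± 0.10, Nop58 of the box C/D snoRNPs at 0.93 ± 0.12 and Rrp1b at 0.84 ± 0.12. The largest falls were Bop1, needed for large subunit assembly, at -0.80 ± 0.13, Rrp9 at -0.49 ± 0.17 and Mrto4 at -0.38 ± 0.11, of which the calls for Rrp9 (-0.35, adjusted p = 0.14) and Mrto4 (-0.29, adjusted p = 0.058) were lost without ID150584. The counts depend on scaling: 9 rose and 13 fell under median-ratio scaling (median -0.12), 14 fell under quantile normalisation (median -0.02), and 1 fell without ID150584.

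The E-box CACGTG, the sequence that Myc and Max bind best, was looked for in the window from 250 bases before to 50 bases after each transcript start in the RefSeq promoter table (build GRCm38.p6); the motif reads the same on both strands. It occurred in 9 of 46 ribosome biogenesis genes with an entry (19.6%), in 1213 of 10638 tested genes with an entry (11.4%) and in 2349 of all 32851 windows (7.2%). A match is a description of these letters and not a binding site. The 3 of these 9 genes with the largest difference between Myc-off and Myc tumours are shown because their levels moved furthest between the transgene on and off; capitals mark the E-box.
Nle1, chr11:82908346-82908645, minus strand: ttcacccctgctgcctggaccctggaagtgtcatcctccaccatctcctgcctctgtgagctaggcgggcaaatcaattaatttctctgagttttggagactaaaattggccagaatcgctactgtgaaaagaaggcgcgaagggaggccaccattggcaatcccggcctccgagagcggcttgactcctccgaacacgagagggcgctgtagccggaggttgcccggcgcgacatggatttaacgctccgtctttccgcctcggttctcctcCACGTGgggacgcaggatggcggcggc
Nop2, chr6:125131633-125131932, plus strand: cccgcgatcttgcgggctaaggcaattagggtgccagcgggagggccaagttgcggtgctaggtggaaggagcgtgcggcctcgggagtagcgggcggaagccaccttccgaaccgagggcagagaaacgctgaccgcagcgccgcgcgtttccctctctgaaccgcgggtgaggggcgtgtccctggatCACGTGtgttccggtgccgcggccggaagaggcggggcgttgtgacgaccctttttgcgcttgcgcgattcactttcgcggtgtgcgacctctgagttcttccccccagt
Utp20, chr10:88826765-88827064, minus strand: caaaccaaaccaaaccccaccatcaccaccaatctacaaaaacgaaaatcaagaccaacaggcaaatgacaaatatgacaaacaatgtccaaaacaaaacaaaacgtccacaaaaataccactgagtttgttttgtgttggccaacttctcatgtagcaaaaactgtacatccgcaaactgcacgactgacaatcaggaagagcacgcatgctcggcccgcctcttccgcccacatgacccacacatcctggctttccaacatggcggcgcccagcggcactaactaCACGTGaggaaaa
In Nop2 the motif lies before the transcript start, and in Nle1 and Utp20 just after it. Nle1, which encodes a factor of large subunit maturation, was at 3.08, 3.58 and 3.06 eRPKM in Myc-off tumours, against 2.37 to 6.38 (median 3.43) in control liver and 21.6 to 28.6 (median 24.8) in Myc tumours. All Myc-off values of Nle1 lie inside the control range and far below every Myc tumour. Nop2, an RNA methyltransferase gene, was at 17.9, 25.8 and 22.8 eRPKM in Myc-off tumours, against 17 to 30.2 (median 23.7) in control liver and 67.5 to 83.9 (median 72) in Myc tumours. Utp20, a gene of the small subunit processome, was at 8.01, 12.5 and 10.9 eRPKM in Myc-off tumours, against 9.09 to 16.2 (median 11.4) in control liver and 29.7 to 40.4 (median 34.4) in Myc tumours. None of the 3 passed the threshold against control liver (log2 fold changes of -0.10, -0.03 and -0.14), and each fell against Myc tumours, by 2.76, 1.72 and 1.71.

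Cell division genes were far above control liver. Mitosis and replication genes were lower than in Myc tumours, and canonical histone genes mostly did not pass the threshold there. All 30 mitosis and spindle genes rose against control liver, at a median log2 fold change of 3.17, and 29 of them fell against Myc tumours, at a median log2 fold change of -1.55. The exception was Mki67, a marker of cycling cells, at 67.5, 49.9 and 73.6 eRPKM in Myc-off tumours, against 0.969 to 7.95 (median 2.59) in control liver and 83.1 to 109 (median 92.7) in Myc tumours. It rose by 4.28 ± 0.30 against control liver (limma adjusted p = 2.7e-13) and was -0.57 ± 0.32 relative to Myc tumours (adjusted p = 0.14). Ccnb1, the cyclin of mitotic entry, was at 20.1, 29.7 and 36.5 eRPKM in Myc-off tumours, against 0.227 to 2.81 (median 0.621) in control liver. Top2a, a topoisomerase of dividing cells, was at 33.5, 39.8 and 48.2 eRPKM in Myc-off tumours, against 0.974 to 5.94 (median 1.56) in control liver. The Myc-off IDs lay above all control IDs for all 30 mitosis genes, as they did for 25.6% of all genes.

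Of 35 DNA replication genes, 30 rose and 1 fell against control liver, at a median log2 fold change of 1.22, and all 35 fell against Myc tumours, at a median log2 fold change of -1.39. The helicase genes Mcm6 at 3.01 ± 0.42, Gins2 at 2.76 ± 0.39 and Mcm2 at 2.70 ± 0.32 rose most. Control livers varied widely for these genes: Mcm6 was at 16, 13.4 and 20.3 eRPKM in Myc-off tumours, against 0.447 to 11.2 (median 0.946) in control liver. The gene that fell was Mcm10, whose product acts in DNA replication. Mcm10 was at 3.14, 4.5 and 5.04 eRPKM in Myc-off tumours, against 11.7 to 37.7 (median 17.6) in control liver and 20.1 to 25 (median 22.9) in Myc tumours. It was the only member below both groups, at -2.12 ± 0.21 from control liver (limma adjusted p = 4.3e-10) and -2.32 ± 0.22 from Myc tumours (adjusted p = 3.3e-10). Of 45 canonical histone genes, which are transcribed in S phase, 41 rose and 0 fell, at a median log2 fold change of 1.73, led by Hist1h3g at 3.80 ± 0.45. Against Myc tumours 2 of the 45 histone genes fell and 0 rose, at a median log2 fold change of -0.34, where 28.3% of all genes fell. Histone genes are near copies of each other, and no source used here says how the authors divided shared reads.

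Erythroid genes, used as markers of red cell precursors, were also higher than in control liver. Of 22 erythroid genes, 19 rose and 0 fell, at a median log2 fold change of 2.61. Their summed level was 419.9, 187 and 634 eRPKM over the Myc-off IDs, against 90.9 to 139.9 over control IDs. This sum includes the transferrin receptor gene Tfrc, which is also counted among the iron handling genes and is no marker of red cell precursors alone. Tfrc was at 68.5, 70.2 and 92.6 eRPKM in Myc-off tumours, against 9.31 to 40.4 in control liver. In ID151964, where erythroid genes were lowest, the median difference from control liver was 0.97 for the erythroid list, 3.14 for mitosis genes and 1.23 for DNA replication genes. In ID150584 these medians were 3.12, 2.84 and 1.02, and in ID153344 they were 3.61, 3.33 and 1.40. ID153344 was highest for all 3 lists, but ID150584 was lowest for mitosis and DNA replication genes and ID151964 for erythroid genes. The part of erythroid cells in the other results was not tested.

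**Figure D1:**
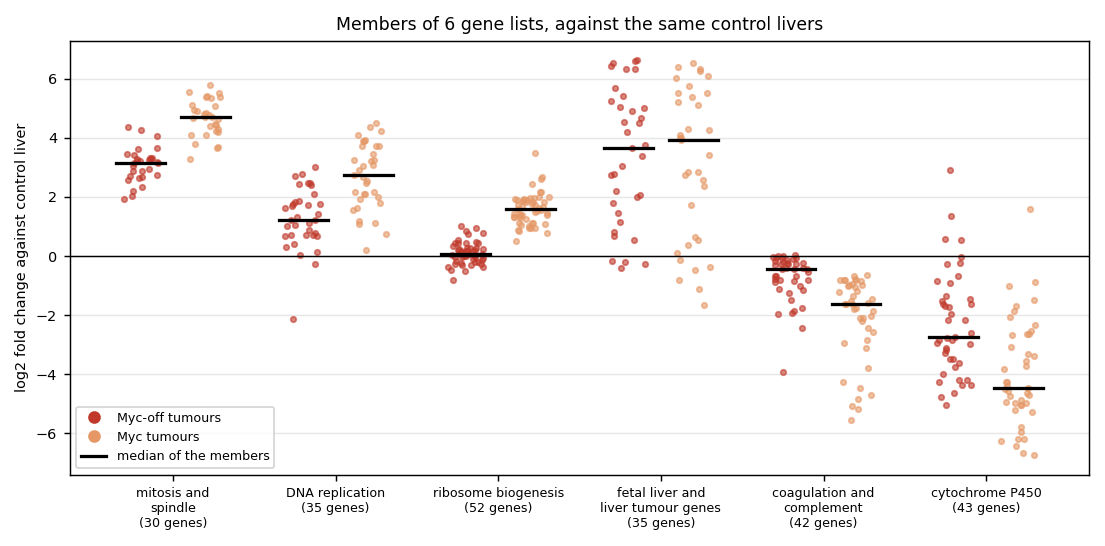
Each point is 1 gene of a list, with its log2 fold change against control liver on the vertical axis in Myc-off tumours (red) and in Myc tumours (orange); bars are medians, and both comparisons use the same 11 control IDs. Ribosome biogenesis genes centre on 0.06 in Myc-off tumours, while mitosis genes keep a median of 3.17 and fetal genes one of 3.64.

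Fetal liver and liver tumour genes stayed high. Of 35 such genes 30 rose and 0 fell against control liver, 27 of them by at least 2-fold, at a median log2 fold change of 3.64. Against Myc tumours 10 rose and 4 fell, at a median log2 fold change of 0.42; the share of rises is near the 22.2% of all genes. Afp, which encodes the fetal serum protein alpha-fetoprotein, was at 159, 186 and 185 eRPKM in Myc-off tumours, against 8.11 to 19.1 (median 12.5) in control liver. It rose by 3.76 ± 0.21 against control liver (limma adjusted p = 9.5e-16) and by 0.92 ± 0.22 against Myc tumours (adjusted p = 8.3e-04), with values near the read ceiling. Igf2, the imprinted fetal growth factor gene, was at 224, 193 and 199.7 eRPKM in Myc-off tumours, against 0.263 to 7.03 (median 2.95) in control liver, and rose by 6.33 ± 0.43. H19, the noncoding RNA of the same locus, was at 249.6, 219 and 213 eRPKM in Myc-off tumours, against 0.189 to 43.6 (median 16.8) in control liver, and rose by 4.52 ± 0.81. The 3 Myc-off IDs are close to each other for both genes and share no value with the control IDs, which spread widely. In Myc-off tumours both genes lie near the read ceiling, which compresses differences between these IDs.

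Gpc3, a cell surface proteoglycan gene used as a hepatocellular carcinoma marker, was at 29.9, 42.1 and 56.1 eRPKM in Myc-off tumours, against 0.327 to 2.91 (median 1.11) in control liver, and rose by 4.67 ± 0.41. Dlk1, a Notch-like ligand gene of fetal hepatoblasts, was at 19, 23.4 and 10.4 eRPKM in Myc-off tumours, against 0 to 0.142 (median 0.026) in control liver, and rose by 5.01 ± 0.37. Relative to Myc tumours these 2 genes were at 0.39 ± 0.43 and -0.53 ± 0.39, and neither passed the threshold. Of the 4 members that fell against Myc tumours, Ccnb1ip1 at -4.13 and the RNA-binding protein gene Lin28b at -3.14 were the largest. Both were still above control liver, at 2.22 and 1.98.

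The 10 genes listed next had the largest rises with no overlap between IDs of the 2 groups. A2m, which encodes the protease inhibitor alpha-2-macroglobulin, was at 103, 121 and 96.4 eRPKM in Myc-off tumours, against 0.0353 to 0.694 (median 0.321) in control liver, and led with 7.05 ± 0.32 (limma adjusted p = 8.5e-18). Ggt1, the gamma-glutamyltransferase gene of fetal liver and bile ducts, was at 97.5, 76 and 56.9 eRPKM in Myc-off tumours, against 0 to 1.03 (median 0.281) in control liver. Spink3, a trypsin inhibitor gene, was at 63.9, 72.5 and 88 eRPKM in Myc-off tumours, against 0 to 2.38 (median 0.324) in control liver. All 3 genes were at most at 2.38 eRPKM in every control ID and at least at 56.9 in every Myc-off ID. Bex2 at 6.59 ± 0.28, Shbg, the sex hormone binding globulin gene, at 6.53 ± 0.25, the trefoil factor gene Tff3 at 6.42 ± 0.73, Bex1 at 6.34 ± 0.29, Igf2, the vitamin A binding protein gene Rbp2 at 6.21 ± 0.31 and the potassium channel gene Kcnk16 at 6.11 ± 0.36 complete the set. Of the 10, Spink3 at 1.00 ± 0.36 and Rbp2 at 1.32 ± 0.33 also rose against Myc tumours, and the other 8 did not pass the threshold there.

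**Figure D2:**
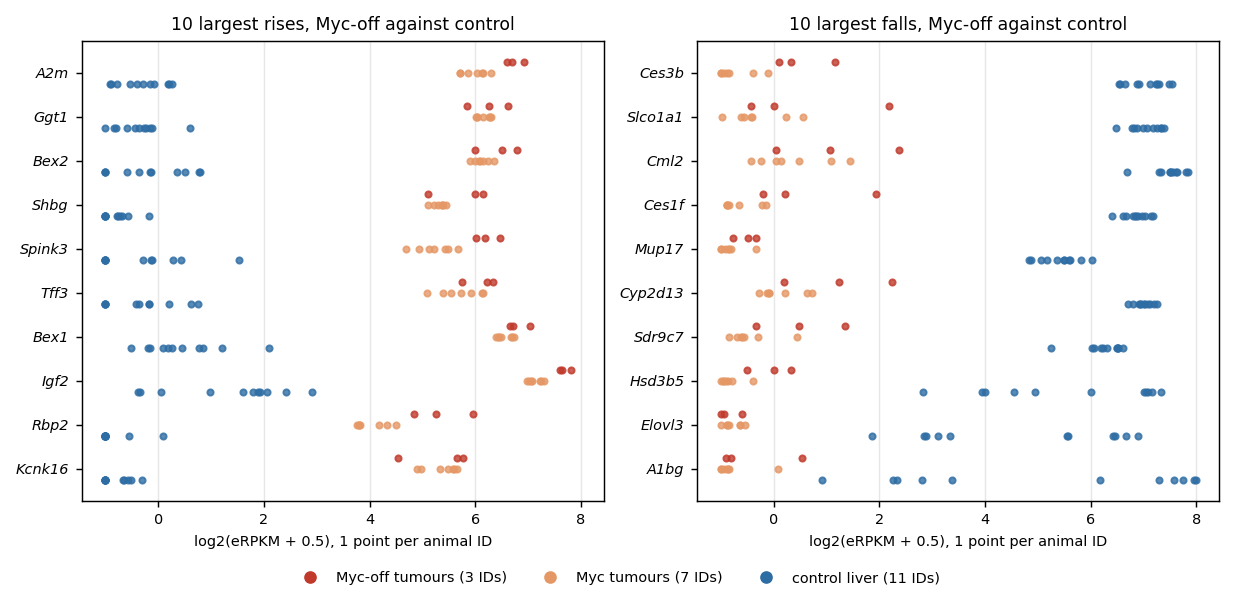
Levels on the log2(eRPKM + 0.5) scale of the 10 largest rises (left) and 10 largest falls (right) in each animal ID, with Myc-off tumours (red), Myc tumours (orange) and control liver (blue). The 3 Myc-off IDs sit with or near the Myc tumours. The genes were chosen for no overlap with the 11 control IDs, so the gap from control liver is set by the choice.

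The serine synthesis genes Phgdh and Psat1 were far above control liver. Phgdh, the first enzyme of the pathway, was at 78.4, 59.7 and 70.4 eRPKM in Myc-off tumours, against 0.352 to 3.36 (median 1.41) in control liver, and rose by 5.25 ± 0.27. Psat1, the next enzyme, was at 106, 81.8 and 87.9 eRPKM in Myc-off tumours, against 1.02 to 4.94 (median 2.95) in control liver, and rose by 4.84 ± 0.24. Relative to Myc tumours they were at -0.39 ± 0.29 and -0.02 ± 0.25 and passed no threshold; ID151964 lies below every Myc tumour ID for both. The mitochondrial folate enzyme gene Mthfd2 was at 14.7, 10.9 and 16 eRPKM in Myc-off tumours, against 1.16 to 6.31 (median 1.73) in control liver and 36.4 to 52.9 (median 47.1) in Myc tumours, between both. Of 26 nucleotide and one-carbon synthesis genes 11 rose (42.3%, against 36.3% of all genes) and 5 fell (19.2%, against 21.6%) against control liver. Under median-ratio scaling 8 fell. The median log2 fold change was 0.18, close to that of all genes. Against Myc tumours 21 fell and 0 rose. The falls against control liver were led by Shmt1 at -0.72 ± 0.10, Shmt2 at -0.61 ± 0.11 and Prps1 at -0.41 ± 0.10. Among 41 genes of the Atf4 and stress response, 13 rose (31.7%, against 36.3% of all genes) and 11 fell (26.8%, against 21.6%), 7 without ID153344. The median log2 fold change was -0.02. The asparagine synthetase gene Asns at 4.91 ± 0.36 stood beside Phgdh and Psat1 at the top, and the hormone gene Fgf21 at -2.31 ± 0.47 at the bottom.

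Targets of p53, the tumour suppressor that halts the cell cycle after damage, were higher than in control liver. Of 26 such genes 18 rose and 1 fell, at a median log2 fold change of 0.69. Cdkn1a, which encodes the cell cycle inhibitor p21, was at 38.1, 32.1 and 18.9 eRPKM in Myc-off tumours, against 0.37 to 6.04 (median 1.97) in control liver and 16.2 to 44.3 (median 21.8) in Myc tumours. It rose by 3.62 ± 0.44 (limma adjusted p = 2.6e-08). The apoptosis gene Pmaip1 rose by 3.27 ± 0.27 and Phlda3, an inhibitor of Akt, by 2.90 ± 0.31; none of these 3 passed the threshold against Myc tumours. Ei24 fell by 1.01 ± 0.09.

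Genes of mature hepatocytes made up the largest falls. Ces3b and Ces1f, carboxylesterase genes that encode hydrolases of drugs and lipids, were at 0.578, 0.756 and 1.74 and at 0.66, 0.365 and 3.34 eRPKM in Myc-off tumours, against 92.7 to 185 (median 138) and 83.7 to 144 (median 116) in control liver. Ces3b had the largest fall, -6.51 ± 0.57 (limma adjusted p = 4.2e-11). Slco1a1, an organic anion transporter gene of the sinusoidal membrane, was at 0.51, 0.242 and 4.05 eRPKM in Myc-off tumours, against 89.2 to 167 (median 133) in control liver. The 3 genes were at most at 4.05 eRPKM in every Myc-off ID and at least at 83.7 in every control ID. Cml2 at -6.32 ± 0.59, the urinary protein gene Mup17 at -5.92 ± 0.36, Cyp2d13 at -5.77 ± 0.49, Sdr9c7 at -5.75 ± 0.44, the steroid dehydrogenase gene Hsd3b5 at -5.68 ± 0.72, the fatty acid elongase gene Elovl3 at -5.53 ± 0.86 and A1bg at -5.51 ± 1.19 complete the 10. Hsd3b5, Elovl3 and A1bg spread over the control IDs, A1bg from 1.38 to 253 (median 71.4), and are known to differ between the sexes in mice. Relative to Myc tumours Ces1f was at 1.29 ± 0.52 (adjusted p = 0.04) and Ces3b at 1.27 ± 0.61 (adjusted p = 0.081), although the Myc-off IDs of Ces3b lie above every Myc tumour ID and those of Ces1f do not. The other 8 did not pass the threshold there. The call of A1bg against control liver was lost with voom on the recovered reads (-7.68, adjusted p = 0.056). Ces, Mup and Cyp genes have near-identical copies, so their single values are uncertain.

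Transcription factors of hepatocyte identity were partly lower. Of 29 factors and nuclear receptors 18 fell and 1 rose against control liver, at a median log2 fold change of -0.59, while 17 rose and 2 fell against Myc tumours, at a median log2 fold change of 0.54. Esr1, the oestrogen receptor gene, was at 0.865, 2.3 and 1.54 eRPKM in Myc-off tumours, against 18 to 40.2 (median 21.2) in control liver, and fell by 3.67 ± 0.36. Tbx3, a factor of the pericentral zone, fell by 3.66 ± 0.37. Onecut2 was at 1.68, 29.1 and 6.23 eRPKM in Myc-off tumours, against 22.4 to 68.9 (median 52.8) in control liver; ID151964 lies inside the control range, and the call was lost without ID150584 (-1.85, adjusted p = 0.11). The core factors Hnf4a, Foxa2 and Foxa3, at -0.09, -0.09 and 0.04, did not pass.

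Drug metabolism genes were the list furthest below control liver. Of 43 cytochrome P450 genes 34 fell (79.1%, against 21.6% of all genes) and 1 rose, at a median log2 fold change of -2.75, and 30 rose and 0 fell against Myc tumours, at a median log2 fold change of 1.70. Cyp1a2, a drug oxidase of the pericentral zone, was at 3.59, 6.99 and 13 eRPKM in Myc-off tumours, against 123 to 172 (median 144) in control liver and 0.375 to 5.08 (median 1.35) in Myc tumours. Cyp2c54 at -5.04 ± 0.51, Cyp4f14 at -4.76 ± 0.69 and Cyp4a10 at -4.62 ± 0.59 fell most. Some members stood closer to control liver: Cyp2d26 was at 102, 126 and 102 eRPKM in Myc-off tumours, against 146 to 215 (median 175) in control liver (-0.67 ± 0.17), and Cyp3a11 at 63.1, 99.9 and 87.9 against 82.9 to 194 (median 168) (-0.86 ± 0.53, not past the threshold). These 2 were named after their values were seen. The member that rose, Cyp4a12b, was at 29.5, 10.3 and 30.2 eRPKM in Myc-off tumours, against 0 to 13.6 (median 2.51) in control liver. The summed level of the list was 644, 1040.4 and 1062 eRPKM over the Myc-off IDs, against 2317 to 4005 over control IDs, and 205 to 346 over Myc tumour IDs. Of 60 conjugation and other drug metabolism genes 46 fell and 1 rose, at a median log2 fold change of -1.67; the glycosyltransferase gene Ugt3a2 fell by 5.01 ± 0.52 and the flavin monooxygenase gene Fmo4 rose by 2.11 ± 0.20.

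Bile acid genes, which make and carry bile acids, fell in 22 of 30 cases and rose in 3, at a median log2 fold change of -0.87. Beside Slco1a1, Cyp7b1 of the alternative synthesis route fell by 4.83 ± 0.53 and the transporter gene Slco1a4 by 3.86 ± 0.61. The export pump gene Abcc4 was at 10, 14 and 13.6 eRPKM in Myc-off tumours, against 0.963 to 6.27 (median 1.39) in control liver, and rose by 2.66 ± 0.33. Acot8, a peroxisomal thioesterase gene, rose by 0.71 ± 0.22, with 17.5, 58.1 and 14 eRPKM in Myc-off tumours: ID151964 alone lies above the control maximum of 23.6, and without it the call was lost (0.089, adjusted p = 0.67). Klb, the co-receptor gene for Fgf15 signals, rose by 0.65 ± 0.12.

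Plasma protein genes were nearer to control liver than drug metabolism genes. Of 38 carrier and apolipoprotein genes 15 fell and 2 rose, at a median log2 fold change of -0.30. Of 42 coagulation and complement genes 26 fell and 0 rose (3 rose under quantile normalisation), at a median log2 fold change of -0.45. Against Myc tumours 32 and 39 members of these lists rose, and none fell. Azgp1, the zinc-alpha2-glycoprotein gene, was at 7.2, 25.6 and 33.7 eRPKM in Myc-off tumours, against 139 to 218 (median 189.7) in control liver and 0.611 to 9.62 (median 4.79) in Myc tumours. Hrg, the histidine-rich glycoprotein gene, was at 6.56, 75.1 and 32.6 eRPKM in Myc-off tumours, against 123 to 184 (median 164) in control liver; its call was lost without ID150584, the lowest ID (-1.66, adjusted p = 0.074). The growth factor gene Igf1 was at 14.8, 23.2 and 38.2 eRPKM in Myc-off tumours, against 70.3 to 164 (median 136) in control liver, and fell by 2.46 ± 0.30. Complement gene C6 fell by 3.93 ± 0.76, C8g by 1.95 ± 0.29, and C4bp by 2.43 ± 0.72, a call lost without ID150584 (-1.89, adjusted p = 0.062). Igfbp1, a binding protein for insulin-like growth factors, rose by 2.27 ± 0.43, and the lipase cofactor gene Apoc2 by 0.43 ± 0.13, a call lost under median-ratio scaling (0.25, adjusted p = 0.15). In these lists 31 of 38 and 36 of 42 genes averaged over 400 reads per kb, where the ceiling compresses differences.

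Acute phase genes, which the liver raises in inflammation, split. Of 35 genes 6 rose (17.1%, against 36.3% of all genes) and 12 fell (34.3%, against 21.6%) against control liver, and 5 fell without ID150584. Against Myc tumours 28 rose and 0 fell, at a median log2 fold change of 1.42. Saa3, a serum amyloid gene also made by macrophages, was at 80.3, 94.4 and 51.2 eRPKM in Myc-off tumours, against 6.14 to 13.8 (median 9.37) in control liver and 5.93 to 27.3 (median 11.6) in Myc tumours. Lcn2, the lipocalin gene of hepatocytes and neutrophils, was at 39.4, 119.6 and 49.3 eRPKM in Myc-off tumours, against 4.72 to 23.8 (median 10.6) in control liver. The Myc-off IDs exceed every control liver for both genes. Hamp2, a hepcidin gene, was at 4.2, 2.04 and 7.87 eRPKM in Myc-off tumours, against 50.7 to 134 (median 79.8) in control liver, and fell by 4.14 ± 0.67. Serpina3m fell by 2.81 ± 0.52 and the orosomucoid gene Orm3 by 2.67 ± 0.67.

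Amino acid breakdown genes were mostly lower. Of 70 urea cycle and amino acid genes 56 fell (80.0%) and 2 rose, 6 under quantile normalisation, at a median log2 fold change of -0.59. In this list 51 of 70 genes averaged over 400 reads per kb, where the ceiling compresses differences. The proline oxidase gene Prodh was at 8.06, 3.75 and 7.23 eRPKM in Myc-off tumours, against 64.7 to 112 (median 85.8) in control liver and 27.8 to 34.3 (median 29.4) in Myc tumours, below both groups. It was -3.70 ± 0.16 from control liver (limma adjusted p = 1.1e-18) and -2.23 ± 0.16 from Myc tumours (adjusted p = 2.2e-12). Tdo2, which starts tryptophan breakdown, was at 5.62, 10.4 and 33 eRPKM in Myc-off tumours, against 105 to 199 (median 174) in control liver, and fell by 3.61 ± 0.77. Agxt, the glyoxylate transaminase gene, fell by 2.63 ± 0.31. The rises were Sdsl at 0.87 ± 0.22 and Bckdk, the kinase gene that inhibits branched-chain breakdown, at 0.62 ± 0.13.

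In glucose metabolism Fbp1 and Pck1 were lower, and Hk2, Pfkp and Pck2 higher, than in control liver. Hk2, the hexokinase gene of growing cells, was at 3.07, 7.91 and 5.52 eRPKM in Myc-off tumours, against 0.476 to 1.89 (median 0.718) in control liver, and rose by 2.07 ± 0.23. Fbp1 and Pck1, gluconeogenesis genes, were at 10.1, 27.1 and 31.5 and at 15.1, 106 and 31.1 eRPKM in Myc-off tumours, against 90.9 to 173 (median 145) and 124 to 236 (median 181) in control liver. Pck2 at 2.40 ± 0.21 and the platelet-type phosphofructokinase gene Pfkp at 2.13 ± 0.27 rose. All 5 differed from Myc tumours in the direction of control liver: Pck1 by 3.33 ± 0.95, Fbp1 by 2.66 ± 0.78, Hk2 by -1.92 ± 0.24, Pfkp by -1.91 ± 0.29 and Pck2 by -0.92 ± 0.22. Of 40 genes in the list 10 rose (25%, against 36.3% of all genes) and 14 fell (35%, against 21.6%), at a median log2 fold change of -0.12. The fall of Pck1 was lost without ID150584 (-1.65, adjusted p = 0.20) and without ID153344 (-2.16, adjusted p = 0.096).

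Lipid genes fell in most called cases. Of 41 fatty acid and cholesterol synthesis genes 21 fell and 3 rose, at a median log2 fold change of -0.40. Thrsp, a lipogenic regulator gene, was at 7.49, 4.88 and 38 eRPKM in Myc-off tumours, against 106 to 244 (median 208) in control liver, and fell by 4.02 ± 0.46. The malic enzyme gene Me1 at -1.82 ± 0.51 and the desaturase gene Fads1 at -1.32 ± 0.13 followed. Scd2, the desaturase gene of fetal liver, was at 152, 129 and 154 eRPKM in Myc-off tumours, against 3.45 to 8.01 (median 5.49) in control liver, and rose by 4.53 ± 0.15. Of 42 fatty acid oxidation and ketogenesis genes 23 fell (15 under quantile normalisation) and 5 rose, at a median log2 fold change of -0.35, led by Cyp4a10 and, among rises, the thioesterase gene Acot2 at 2.02 ± 0.28. The counts for oxidative phosphorylation subunits depended on scaling. Of 54 genes 8 fell (14.8%, against 21.6% of all genes) and 0 rose, at a median log2 fold change of -0.08. Under median-ratio scaling 20 fell, while 2 fell and 11 rose under quantile normalisation. Of the 54 genes, 40 averaged over 400 reads per kb, where the ceiling compresses differences.

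Zonation genes, which are expressed at one end of the liver lobule, fell at both ends. Of 24 pericentral genes 18 fell and 0 rose, at a median log2 fold change of -2.03. Slc1a2, a glutamate transporter gene, was at 0.295, 0.146 and 0.27 eRPKM in Myc-off tumours, against 22.2 to 40.8 (median 28.2) in control liver, and Notum, a Wnt inhibitor gene, at 0.252, 1.16 and 0.88 against 29.8 to 51.5 (median 32.8). They fell by 5.30 ± 0.22 and 4.93 ± 0.34, and relative to Myc tumours they stood at 0.02 ± 0.23 and 0.64 ± 0.36, past no threshold. Of 22 periportal genes 16 fell and 3 rose, at a median log2 fold change of -0.74. Cyp2f2 was at 5.47, 36.3 and 46.6 eRPKM in Myc-off tumours, against 109 to 196 (median 161) in control liver and 0.147 to 3.21 (median 0.936) in Myc tumours, 3.88 ± 0.70 relative to Myc tumours. The receptor gene Pigr fell by 3.93 ± 0.61, and the E-cadherin gene Cdh1 rose by 0.74 ± 0.10. Of 31 growth hormone and sex-dependent genes 19 fell and 1 rose, at a median log2 fold change of -2.05; the sexes are mixed on both sides, and the falls of Slco1a1, Hsd3b5 and Elovl3 passed the threshold with Xist as a term.

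**Figure D3:**
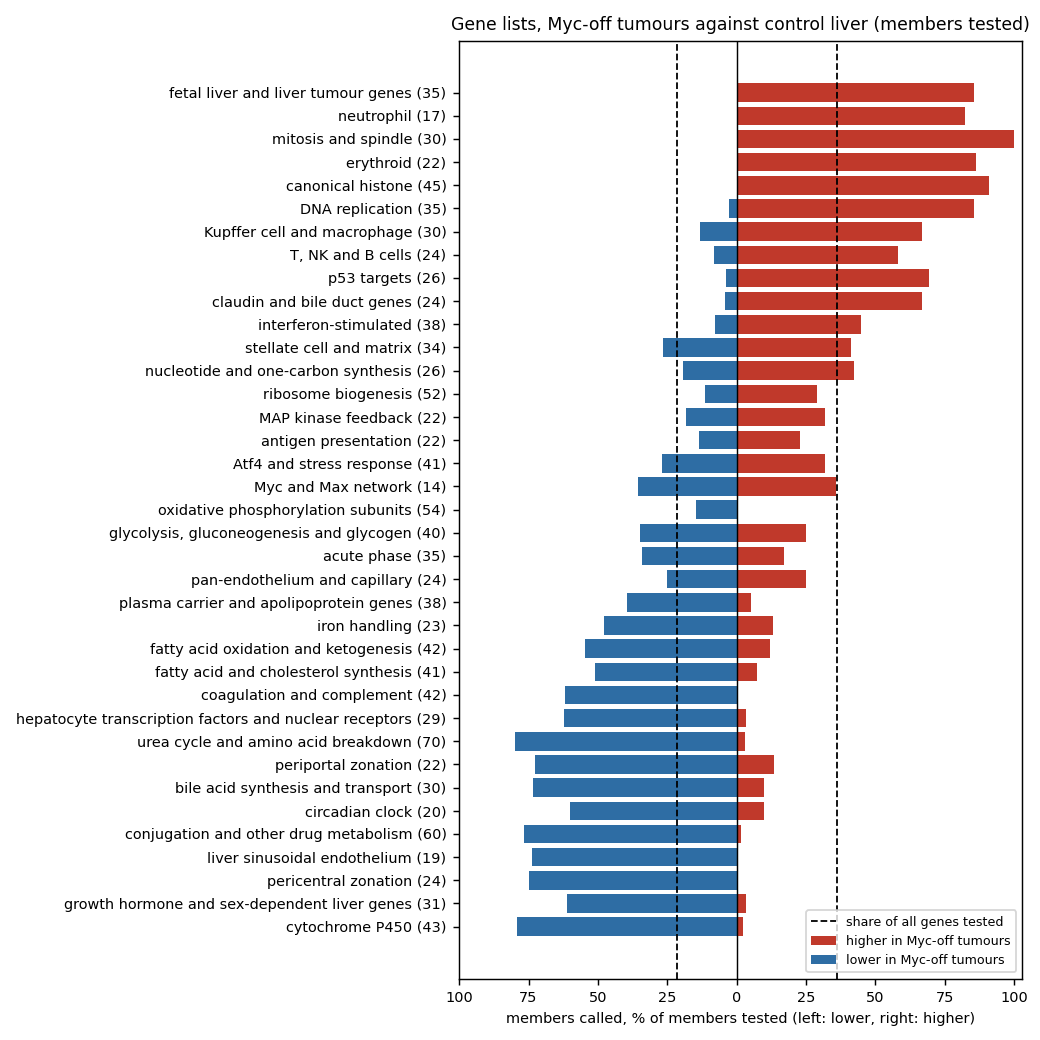
Share of the tested members of each gene list called higher (right) or lower (left) in Myc-off tumours than in control liver, in percent, with the number tested in brackets; dashed lines give the shares of all genes, 36.3% higher and 21.6% lower. Mitosis genes reach 100% higher, and P450 genes 79.1% lower.

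Some genes stood outside both the control and the Myc tumour range. Of the 14548 genes tested, 487 were called higher than both, 151 of them by at least 2-fold, and 307 lower than both, 32 by at least 2-fold. These had no overlap of IDs with either group and at least 5 eRPKM in a group, with provisional and small RNA names left out. How many genes met the level and name rules was not counted. Against control liver alone, 25.6% of the genes tested were higher without overlap of IDs and 14.2% lower. The 6 genes furthest above both included tight junction and ductal genes. Cldn6, a claudin gene of embryonic epithelia, was at 12.3, 79.6 and 127 eRPKM in Myc-off tumours, against 0 to 1.04 (median 0.416) in control liver and 0.237 to 6.44 (median 1.43) in Myc tumours. It rose by 5.76 ± 0.83 against control liver (limma adjusted p = 6.9e-07) and by 4.30 ± 0.88 against Myc tumours (adjusted p = 1.4e-04). Krt7, the keratin gene of bile duct cells, was at 8.56, 31.9 and 28 eRPKM in Myc-off tumours, against 0.156 to 2.45 (median 0.448) in control liver and 0.169 to 1.72 (median 1.4) in Myc tumours. For both genes ID150584 was the lowest Myc-off ID and lay above every Myc tumour ID and control ID. MycVD tumours, which carry a tet-MycVD transgene that was left on, ran up to 56.1 eRPKM for Cldn6 and 15.2 for Krt7 and overlap the Myc-off IDs.

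Psca, a surface antigen gene of epithelia, was at 3.45, 25.6 and 10.3 eRPKM in Myc-off tumours and had no read in any control library. A limit of 3 reads over the 78.6 M pooled control reads is 0.0446 eRPKM, so the Myc-off mean of 13.1 eRPKM was at least 294-fold higher, and the lowest ID at least 77.3-fold. Slc44a4, a choline transporter-like gene, was at 14.1, 27.9 and 30.1 eRPKM in Myc-off tumours, against 0.153 to 0.447 (median 0.333) in control liver, and MycVD tumours overlap this range, at 1.15 to 25.2 (median 11.1). Guca2b, the uroguanylin gene of gut epithelium, was at 17.1, 18.3 and 11.5 eRPKM in Myc-off tumours, against 0 to 0.292 (median 0) in control liver. Sprr1a, a cornified envelope gene, ranged most, with 1.39, 50.7 and 8.87 eRPKM in Myc-off tumours, against 0 to 0.283 (median 0) in control liver. Single tumours of ID150584 had 0.346, 4.27 and 1.17 eRPKM of Sprr1a and 4.99, 44.8 and 7.96 eRPKM of Cldn6, so tumours of the same ID differed too.

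**Figure D4:**
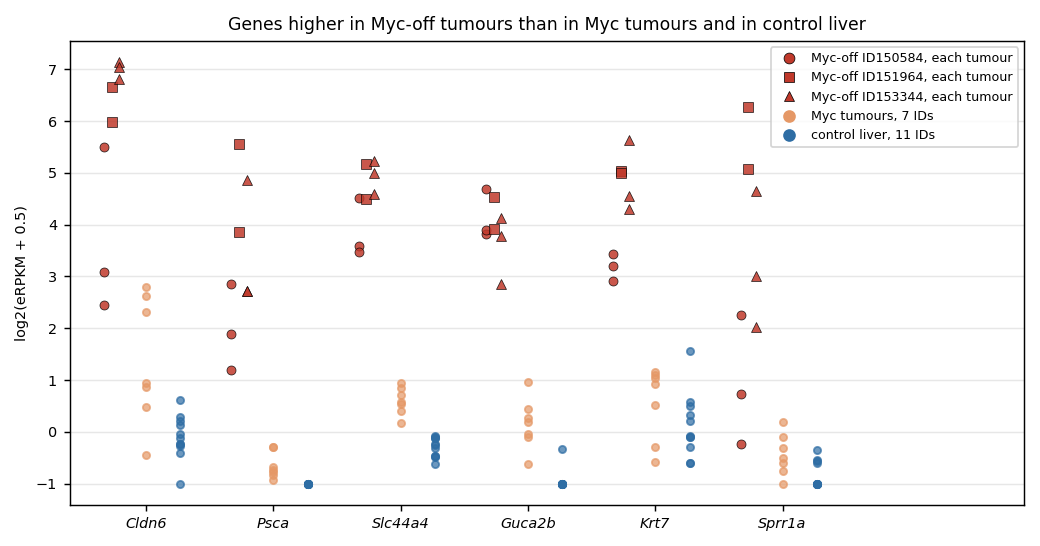
Levels on the log2(eRPKM + 0.5) scale of the 6 genes furthest above both groups, with every Myc-off tumour (red, marker by ID), the 7 Myc tumour IDs (orange) and the 11 control IDs (blue). All Myc-off tumours lie above the other points, apart from 1 tumour of ID150584 in each of Cldn6 and Sprr1a, which lies below the highest Myc tumour ID.

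Most claudin and bile duct genes rose. Of 24 members tested of 27, 16 rose and 1 fell against control liver, at a median log2 fold change of 0.65, and 19 rose and 0 fell against Myc tumours, at a median log2 fold change of 1.58. The gut keratin gene Krt20 was at 8.83, 33.3 and 17.9 eRPKM in Myc-off tumours, against 0 to 0.0579 (median 0) in control liver, and rose by 5.15 ± 0.37. MycVD tumours had 5.40 to 37.1 eRPKM of Krt20, a range that holds all Myc-off IDs. Cldn3, the claudin gene of normal hepatocytes and ducts, was the member that fell: it was at 8.15, 67.7 and 27.1 eRPKM in Myc-off tumours, against 83.8 to 113 (median 88.7) in control liver and 0.776 to 6.52 (median 3.71) in Myc tumours, and the call was lost without ID150584 (-1.10, adjusted p = 0.24). The bile duct factor gene Sox9 was at 0.359, 2.04 and 2.79 eRPKM in Myc-off tumours, against 0.998 to 2.99 (median 1.4) in control liver (-0.15 ± 0.35, not past the threshold). In bulk tissue more cells of a type and more RNA per cell cannot be told apart.

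The 6 genes chosen lay furthest below both groups. Nr1d1, the clock repressor gene, was at 1.83, 2.62 and 4.4 eRPKM in Myc-off tumours, against 31.6 to 77.4 (median 44.6) in control liver and 7.65 to 17.3 (median 10.3) in Myc tumours. Dnph1, which encodes an enzyme that hydrolyses nucleotides, was at 3.92, 5.66 and 2.85 eRPKM in Myc-off tumours, against 17.5 to 28.8 (median 20.2) in control liver and 31.1 to 38.9 (median 34.2) in Myc tumours. Pllp, a membrane protein gene, fell by 2.39 ± 0.36 against control liver, and Klhl21, a ubiquitin ligase adaptor gene of mitosis, by 1.76 ± 0.14. Mcm10 and Prodh, described above, are the other 2.

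Vascular genes split. Of 19 markers of liver sinusoidal endothelium 14 fell and 0 rose, at a median log2 fold change of -1.77, and their summed level was 112, 186 and 181 eRPKM over the Myc-off IDs, against 345 to 563 over control IDs; none was at 0 in all IDs of a group. Dnase1l3, a nuclease gene of these cells, was at 2.4, 2.47 and 4.93 eRPKM in Myc-off tumours, against 22.6 to 43.2 (median 32.5) in control liver. The lectin gene Clec4g was at 2.73, 10.8 and 16.9 eRPKM in Myc-off tumours, against 57.4 to 93 (median 65.3) in control liver, and the Wnt enhancer gene Rspo3, made by endothelium of the central vein, at 0.367, 0.615 and 1.08 against 5.26 to 8.86 (median 7.36). Of 24 pan-endothelial and capillary genes 6 rose (25%, against 36.3% of all genes) and 6 fell (25%, against 21.6%). The falls were 10 under median-ratio scaling, 12 under quantile normalisation and 3 without ID150584. Aplnr, Esm1 and Apln, genes of sprouting vessels, rose by 3.24 ± 0.25, 3.21 ± 0.33 and 2.90 ± 0.46. Eng, Kdr and Tek, general endothelial receptors, fell by 1.50 ± 0.17, 1.29 ± 0.19 and 1.16 ± 0.23. None of these 6 passed the threshold against Myc tumours.

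Stellate cell and matrix genes rose and fell at shares near those of all genes. Of 34 genes 14 rose (41.2%, against 36.3% of all genes) and 9 fell (26.5%, against 21.6%), at a median log2 fold change of 0.34. Lrat, the vitamin A storing enzyme gene of quiescent stellate cells, was at 2.03, 1.96 and 4.16 eRPKM in Myc-off tumours, against 13.1 to 36.1 (median 29.6) in control liver, and Reln fell by 2.78 ± 0.45. Ecm1, an extracellular matrix gene, fell most, by 3.45 ± 0.21. Timp1, an inhibitor of matrix proteases, was at 2.27, 24.3 and 10.9 eRPKM in Myc-off tumours, against 0 to 0.58 (median 0.197) in control liver, and the collagen cross-linking gene Lox rose by 3.01 ± 0.25. The list median of ID150584 was -0.28 and those of ID151964 and ID153344 were 0.69 and 0.57, where the highest control ID had 0.67.

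Macrophage genes were mostly higher, with a few members lower. Of 30 genes 20 rose and 4 fell, at a median log2 fold change of 1.15, and their summed level was 849, 918 and 1106 eRPKM over the Myc-off IDs, against 456 to 782 over control IDs. Gpnmb, a gene of lipid-laden macrophages, was at 16.7, 7.92 and 9.43 eRPKM in Myc-off tumours, against 0 to 0.23 (median 0.118) in control liver, and Trem2 at 4.31, 12.3 and 10.8 against 0.151 to 0.867 (median 0.419). Clec4f, the lectin gene that marks Kupffer cells, was at 6.49, 10.4 and 17.3 eRPKM in Myc-off tumours, against 54 to 91.8 (median 62.6) in control liver. Vsig4 and Cd163 fell by 1.58 ± 0.66 and 1.42 ± 0.23. Without ID150584 the calls for Clec4f (-2.22, adjusted p = 0.055) and Vsig4 (-1.24, adjusted p = 0.19) were lost. None of Gpnmb, Trem2, Itgax, Clec4f, Vsig4 and Cd163 passed the threshold against Myc tumours.

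Of 17 neutrophil genes 14 rose and 0 fell, at a median log2 fold change of 3.18. Their summed level was 335, 284 and 424 eRPKM over the Myc-off IDs, against 27.4 to 44.1 over control IDs. This sum includes Lcn2, a gene of hepatocytes too, at 39.4, 119.6 and 49.3 eRPKM in Myc-off tumours, against 4.72 to 23.8 in control liver. Ngp and Camp, granule genes of immature neutrophils, were at 29.9, 3.87 and 31.7 and at 19.7, 3.59 and 30.4 eRPKM in Myc-off tumours, against 0 to 0.603 (median 0.235) and 0 to 0.837 (median 0) in control liver. ID151964 was low for both, as it was for erythroid genes. Of 24 T, NK and B cell genes 14 rose (8 under quantile normalisation) and 2 fell, at a median log2 fold change of 0.70. The granzyme gene Gzma was at 19.9, 2.88 and 5.42 eRPKM in Myc-off tumours, against 0.697 to 2.5 (median 1.73) in control liver. Zap70, a T cell kinase gene, fell by 2.29 ± 0.23, against the direction of its list. The part of these cells in the other results was not tested.

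The 3 Myc-off IDs did not sit at the same distance from control liver. The median P450 gene of ID150584, ID151964 and ID153344 was -3.65, -2.01 and -1.73 from the control mean on the log2 scale, and the control IDs ran from -0.56 to 0.22. For growth hormone and sex-dependent genes the medians were -2.28, -1.92 and -1.05, and for sinusoidal endothelium -2.29, -1.75 and -1.34. ID150584 was lowest in all 3 lists. In its tumours B and C, Alb was at 69.4 and 297 eRPKM and Afp at 68.7 and 289. These libraries had 10.4 and 3.25 M reads, and Alb was at 720 and 966 reads per kb in them. The part of depth and the read ceiling in the eRPKM gap was not tested. The fetal list was alike in the 3 IDs, at 3.62, 3.48 and 4.12, and so were p53 targets, at 0.77, 0.78 and 0.65. Without ID150584, the counts were 7462 genes called, against 8423 with it; 7155 of the 8423 kept their call and direction.

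**Figure D5:**
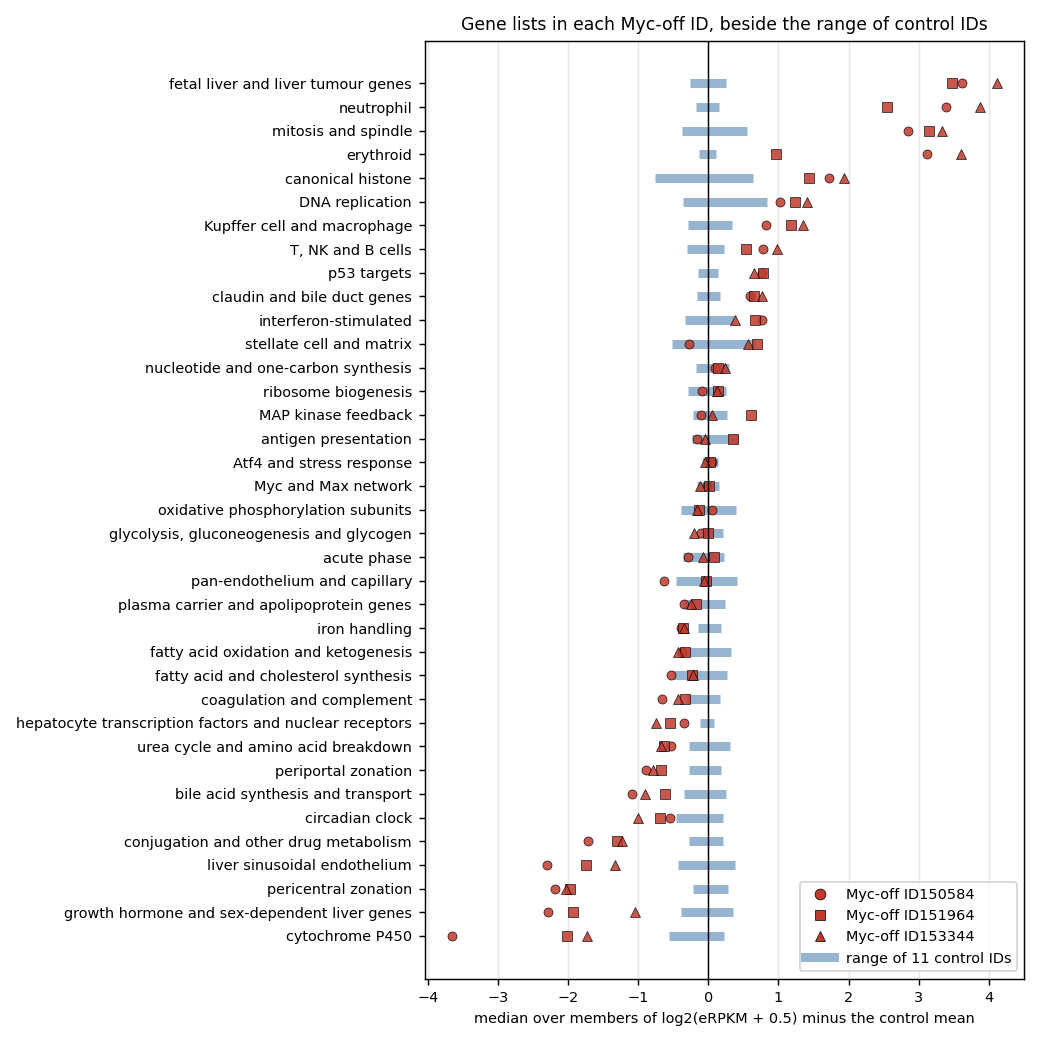
Median over the members of each gene list of log2(eRPKM + 0.5) minus the control mean, for each Myc-off ID (red markers) and as the range of the 11 control IDs (blue bars). P450 genes run from -3.65 to -1.73 over the 3 Myc-off IDs and ribosome biogenesis genes overlap the control range.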

How the data were processed

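RNA of 46 mouse samples was measured by RNA-seq, of which 19 are compared here: 8 Myc-off tumours (3 IDs) and 11 control livers (11 IDs). Per the labels' protocols, ribosomal RNA was removed with Ribozero and libraries were made with TruSeq RNA v2. This kit does not mark strand, so overlapping genes on opposite strands cannot be told apart. Per the submitters' processing notes, reads were handled with TopHat and TopHat2 version 2.0.8 and the build was mm9. No source used here names the read counter, the annotation or the treatment of duplicate reads. The authors deposited exonic RPKM values (eRPKM) for 21671 genes, which are not counts.

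Low values were whole multiples of a smallest step per gene. This gave the length of 19416 genes and the depth of each library: 100.0% of their values were whole reads within 0.001 reads. The ceiling of reads per kb was inferred from the values, and no source used here describes it. Every pair of libraries of a group differed by more than sampling noise: the smallest chi-square divided by its degrees of freedom was 8.42 over 28 Myc-off pairs and 3.18 over 55 control pairs. Precision is limited by 3 Myc-off IDs. The SEs and p-values rest on a spread between IDs shared by all 4 groups (31 IDs), not on that of the Myc-off IDs alone. They can therefore understate the uncertainty of genes whose 3 Myc-off values lie far apart. Nothing in the labels shows the IDs to be separate animals. Replicates share no numbers across groups, so no pairing exists.

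Each ID entered as the mean log2(eRPKM + 0.5) of its tumours. A gene was tested if 3 or more IDs reached 1 eRPKM (14548 genes, 7123 removed). The limma tests (version 3.58.1, R 4.3.3; two-sided, eBayes with trend, Benjamini-Hochberg at 0.05) were fitted to all 4 groups together, 31 IDs, without covariates, and checked on simulated data. All adjusted p-values come from this fit over all genes. Contrasts with control liver and with Myc tumours share the Myc-off IDs.

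The 37 gene lists, the members and the named genes were chosen with earlier results of these data known. Named were 12 preset genes, the 10 largest rises and falls without overlap of IDs and with a group mean of at least 5 eRPKM, the 6 genes furthest above and below both other groups, and in each list the 3 called members with the largest change in each direction; provisional and small RNA names were left out, and exceptions and defining markers were added. Lists are described by counts and medians, with no list test. The 30 alternatives changed the pseudocount, filter, scaling, fit, weights, covariates or libraries; voom on the recovered reads, a start position correction and leaving out 3 libraries that stood apart were chosen after seeing the data. Promoter sequences are from RefSeq, build GRCm38.p6, matched by symbol. Genes with near-identical copies are uncertain, since the division of shared reads is not known. Some genes of the lists are counted but not reported here by name.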

Additional observations from a re-analysis of the deposited data

Results flagged for a closer look

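Levels of 4 genes in single Myc tumour IDs, used here as the second comparison, stood apart from the other 6 IDs of that group by Dixon's test at the 95% level. The test was run on 43 sets of 7 IDs, and chance gives about 1 in 20. All 4 belong to genes among the largest falls of Myc-off tumours against control liver, and all 4 levels lie below every control ID. In Myc tumour ID126948, Mup17 was at 0.294 eRPKM (next highest ID 0.0714), Sdr9c7 at 0.863 (next 0.32) and Hsd3b5 at 0.265 (next 0.0815). In Myc tumour ID125324, A1bg was at 0.555 eRPKM (next 0.0608). All these levels are under 1 eRPKM, where a few reads decide a value, and the test used eRPKM and not log2 values.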

How the results depend on the processing

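Of 192 named genes that passed the threshold, 166 kept their call and direction under all 30 alternatives. The count of genes called ran from 7282 to 9459, against 8423. Leaving out each Myc-off ID gave 7282 to 7691 calls and each control ID 8303 to 8677. With voom on the recovered reads the count was 9072. With only the 2 groups in the fit 7540 genes were called. Among the genes named above, the calls of Ncl, Rrp9 and Acot8 against control liver were lost in that 2-group fit. Of the 8423 genes, 79.3% (quantile normalisation) to 99.9% (robust eBayes) were called in the same direction, and 1 gene was called in the opposite one under quantile normalisation. Under median-ratio scaling 4105 genes were called higher, against 5279, and 4452 lower, against 3144.

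Values that changed sign belong to 3 genes that did not pass the threshold. Myc stood at -0.0038 under median-ratio scaling, -0.28 under quantile normalisation, -0.26 with array weights and between -0.15 (without ID151964) and 0.37 (without ID153344) when 1 Myc-off ID was left out. Odc1 stood at 0.082 under quantile normalisation and 0.031 with array weights, and Alb at 0.0397 without the 3 libraries that stood apart. List medians near 0 changed sign under a scaling: nucleotide and one-carbon synthesis to -0.0039, antigen presentation to -0.15, MAP kinase feedback to -0.12 and ribosome biogenesis to -0.12 under median-ratio scaling, and Atf4 and stress response to 0.10, acute phase to 0.03 and oxidative phosphorylation to 0.07 under quantile normalisation. Lower calls for oxidative phosphorylation were 13, 2 and 3 without ID150584, ID151964 and ID153344, against 8. No paired analysis was possible because the groups share no IDs. The cause was not tested. Depth limits genes under about 1 eRPKM, and the ceiling limits abundant genes.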

Other observations

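Fewer iron genes rose than fell. Of 23 iron handling genes 11 fell and 3 rose against control liver, at a median log2 fold change of -0.32. Bmp6, which signals iron load to hepatocytes, was at 0.485, 1.45 and 1.17 eRPKM in Myc-off tumours, against 3.32 to 9.3 (median 5.3) in control liver, and Smad7, an inhibitor induced by that signal, fell by 1.81 ± 0.25. Tfrc, the transferrin receptor gene, was at 68.5, 70.2 and 92.6 eRPKM in Myc-off tumours, against 9.31 to 40.4 (median 16.2) in control liver, and rose by 2.03 ± 0.24. In the clock list 12 of 20 genes fell and 2 rose, at a median log2 fold change of -0.89. Arntl, the clock activator gene, was at 7.98, 8.76 and 6.3 eRPKM in Myc-off tumours, against 0.998 to 9.76 (median 1.84) in control liver, and rose by 1.42 ± 0.39, while the output gene Dbp fell by 2.94 ± 0.27 and Ciart by 2.30 ± 0.44. The time of day at which tissue was taken is not stated, so it cannot be told apart from the groups.

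Interferon-stimulated genes rose in 17 of 38 cases (44.7%, against 36.3% of all genes) and fell in 3 (7.9%, against 21.6%). The median log2 fold change was 0.54, and the rises were 10 under quantile normalisation. Against Myc tumours 18 rose and 0 fell, where 22.2% of all genes rose. Cxcl10, a chemokine gene, was at 49.8, 36.7 and 48.1 eRPKM in Myc-off tumours, against 1.0 to 5.65 (median 2.12) in control liver and 3.53 to 21.8 (median 6.77) in Myc tumours. Of 22 antigen presentation genes 5 rose (22.7%) and 3 fell (13.6%), shares below those of all genes. The costimulatory gene Cd40 was at 3.24, 17.5 and 3.37 eRPKM in Myc-off tumours, against 0.416 to 1.19 (median 0.738) in control liver. The transactivator gene Nlrc5 fell by 1.50 ± 0.34. Among 22 MAP kinase feedback genes 7 rose (31.8%) and 4 fell (18.2%), 8 under quantile normalisation. The shares as deposited are also below those of all genes. The phosphatase gene Dusp9 was at 79.3, 39 and 63 eRPKM in Myc-off tumours, against 0 to 2.08 (median 0.50) in control liver, and the inhibitor gene Spry4 at 1.66, 4.19 and 2.71 against 8.83 to 22.3 (median 16.8).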
